A study of Mus musculus with 41 samples.

Results

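Interferon-stimulated effector genes are the genes that carry out the antiviral response after a cell has detected interferon. Here they are 34 named mouse genes, followed by symbol (GENCODE M21) through both count tables and the peak table of a study of RHOX10, a homeobox transcription factor of the male germline, in spermatogonial cells. They are 34 of the 55536 genes in the count tables. The genes were chosen with the induction time course of the same study already known, so their values in that time course are given as a description, and nothing is read from test calls on them. The genotype comparison and the peak table are other measurements on other samples, but the genes were chosen with earlier results of these data known.

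The time course (iSLAM-seq, which combines an inducible transcription factor with metabolic labelling and sequencing of RNA) used germline stem (GS) cells, a culture of spermatogonial stem cells grown from newborn C57BL/6 testes. In all of its 24 libraries, control libraries included, the cells carried an shRNA lentivirus against endogenous Rhox10. One set then received a lentiviral Rhox10-ERT2-mCherry fusion (called Rhox10 below) and the other an ERT2-mCherry empty vector (Ctrl). Tamoxifen binding to the ERT2 part switches the fusion on, and the labels name 4-hydroxytamoxifen as the inducer without saying whether Ctrl cells also received it. Each vector had 2 biological replicates at 0, 0.5, 1, 2, 4 and 8 h. RNA-seq compared 4 libraries labelled wild-type with 4 labelled Rhox10-null, on a C57BL/6 background crossed to an Oct4-eGFP reporter. Each was made from eGFP+ cells sorted from the testes of 3 pooled animals, whose age the labels do not give. CUT&Tag, which cuts DNA where an antibody is bound, mapped HA-tagged RHOX10 in knocked-down GS cells, with 3 libraries each of RHOX10, IgG and empty-vector control.

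Interferons bind receptors at the cell surface, whose JAK1 and TYK2 kinases phosphorylate STAT proteins. Together with IRF9 these enter the nucleus and bind the interferon-stimulated response element (ISRE) in front of the effector genes. Some effectors can also be switched on directly by IRF factors after a cell senses foreign or misplaced nucleic acid. Stem cells of several kinds are known for a muted response to interferon, and Ifitm3, one of the effectors, is also known as a marker of early germ cells.

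The iSLAM-seq libraries held 9419615 to 12645845 counts and the RNA-seq libraries 6602089 to 8278887. In RNA-seq, 8 abundant genes took most of these, leaving 1379870 to 2128523 counts per library for all other genes. Rhox10 itself had 2 to 27 counts in Ctrl and 353 to 540 in Rhox10 libraries, the 0 h libraries included. In RNA-seq it had 3 to 10 counts with the wild-type label and 4 to 11 with the null label, so the counts do not verify the genotype label, and directions below are those of the labels. The 2 Ctrl libraries at 0.5 h stood apart from each other (chi-square per degree of freedom 26.6, against 2.61 to 4.57 in the other iSLAM-seq pairs). Germ cell markers were above 0 in every group of both assays. All levels below are CPM, counts scaled to a common library size by TMM, and are compared between libraries, not between genes. In these bulk samples, fewer cells of a type and less RNA per cell cannot be told apart.

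The promoters show the element that many of these genes share. RefSeq promoters (GRCm38.p6, 250 bases before to 50 after each start) were held for 25 of the 34 genes. The core of the ISRE was searched as GAAANNGAAA on both strands. It was found in 12 of the 25 (48.0%), against 3.99% of the 27025 genes with a promoter. The following windows are those of Bst2 and of 5 genes from the ISG15, IFIT, OAS and nucleotide groups whose time courses are described below, with the bases matching the core in capitals. Where the capitals read TTTC, the match is on the other strand.
Isg15: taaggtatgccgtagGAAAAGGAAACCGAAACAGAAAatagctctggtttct
Ifit1: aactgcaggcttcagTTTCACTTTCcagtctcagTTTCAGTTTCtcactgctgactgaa
Ifit3b: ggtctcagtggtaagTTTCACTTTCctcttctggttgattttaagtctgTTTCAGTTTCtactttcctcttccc
Oas1a: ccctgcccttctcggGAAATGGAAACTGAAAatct
Rsad2: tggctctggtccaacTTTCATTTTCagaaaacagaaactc
Bst2: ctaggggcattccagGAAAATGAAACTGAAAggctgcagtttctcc
Each is written 5′ to 3′ on the strand of its gene. They lie at chr4:156200860-156200911 (minus strand), chr19:34640770-34640828 (plus), chr19:34607754-34607827 (plus), chr5:120907526-120907560 (minus), chr12:26456548-26456587 (minus) and chr8:71537572-71537617 (minus). Isg15 had 3 overlapping matches, Oas1a and Bst2 a pair that overlap, and Ifit1 and Ifit3b a pair that lie apart. The window of Ifit3, at chr19:34583358-34583431, has the same letters as that of its near copy Ifit3b. Bst2 was added after its values were seen, because a RHOX10 peak covers its window. The other genes with a match were Gbp2, Gbp3, Oas3, Trim30a and Ifitm3. The windows of Gbp2 and Ifitm3, which are also described below, reach into an annotated transcript and are not printed. The core was absent from the windows of Cmpk2, Dtx3l, Herc6, Ifi35, Ifi44, Ifit2, Lgals3bp, Oasl1, Oasl2, Parp12, Samd9l, Trim25 and Xaf1. A second motif, the gamma-activated site TTCNNNGAA (GAS), whose letters read the same on both strands, was found in 5 of the 25, against 9.55% of genes. These were Oas1a, Bst2, Ifitm3, Ifi35 and Ifit2, and in Bst2 and Ifitm3 it overlapped the ISRE core. A match describes letters and is not a measured binding site.

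All 34 genes passed the filter on low counts in iSLAM-seq. At 8 h every one of them was higher in both Rhox10 libraries than in both Ctrl libraries. The same held for 29.4% of the 20642 genes tested, so absence of overlap between pairs is common here. The median difference at 8 h, Rhox10 minus Ctrl, was 1.90 on the log2 scale, from 0.33 (Gbp2) to 4.05 (Cmpk2), against a median of -0.00 over all genes. At 0 h the median was 0.07. It was 0.12, 0.06 and 0.23 at 0.5, 1 and 2 h. At 4 h the median was 0.56, with 26 genes having both Rhox10 libraries above both Ctrl libraries (28.0%). Relative to 0 h, the difference had changed by a median of 1.92 at 8 h, above 0 in 33 of 34 genes, against -0.02 over all genes. The test of any change from 0 h called 26 of the 34 and 2.39% of all genes, and since the genes were chosen on this contrast nothing is read from that count. The heat map shows the difference for each gene and time.

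**Figure D1:**
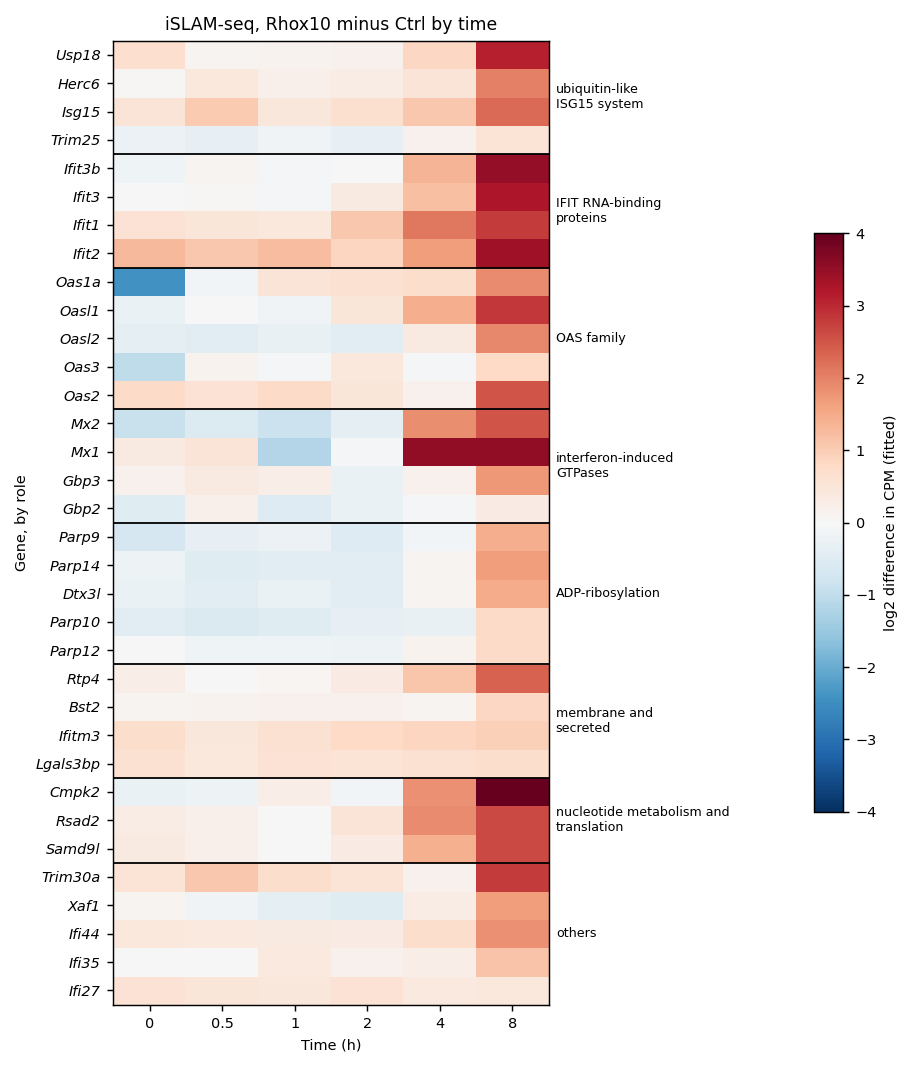
Fitted log2 difference in CPM between Rhox10 and Ctrl libraries (2 per vector) at each time in hours, for the 34 genes ordered by role, with the color scale ending at 4 on either side. Most rows are pale from 0 to 2 h (medians 0.06 to 0.23) and red at 8 h (median 1.90). Ifitm3, Lgals3bp and Ifi27 are light red at every time, between 0.41 and 0.94.

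The ubiquitin-like ISG15 system held 4 genes. Isg15 encodes a ubiquitin-like protein that is joined to other proteins. Its level was 107 and 96.8 CPM in the Ctrl libraries and 155 and 134 CPM in the Rhox10 libraries at 0 h. At 4 h the levels were 119 and 122 CPM in Ctrl and 260.5 and 253 CPM in Rhox10. At 8 h they were 132 and 113 CPM in Ctrl and 612 and 561 CPM in Rhox10, a 4.80-fold fitted difference. The pairs did not overlap at any of these 3 times, and the gap widened late, by 1.76 (SE 0.330) on the log2 scale from 0 to 8 h. At 0.5 h the Ctrl pair of Isg15 was itself far apart, at 112 and 38.6 CPM. Usp18, the protease that removes ISG15 and also damps the interferon receptor, was at 13 and 12.8 CPM in Ctrl and 108 and 115 CPM in Rhox10 at 8 h. At 4 h it was still at 25.4 and 25.8 CPM in Rhox10, near its 0 h values of 24 and 24.5 CPM, so 6.78% of its 8 h change (on the log2 scale) was present at 4 h. Herc6, the ligase that attaches ISG15 in mouse, changed its difference by 1.96 on the log2 scale. Trim25, a ubiquitin ligase that acts on the RNA sensor RIG-I, had the smallest change of the group, 0.80. It went from 132 and 129 CPM at 0 h, below both Ctrl libraries (150.5 and 159 CPM), to 225 and 232 CPM at 8 h, above both (156 and 154 CPM).

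The 4 IFIT genes encode proteins that hold back translation of foreign RNA by binding its end, and they lie side by side on chromosome 19 between positions 34550694 and 34650009. Ifit1 was at 54.4 and 57 CPM in Ctrl and 84.9 and 83.1 CPM in Rhox10 at 0 h. At 2 h it was at 47.9 and 57.9 CPM in Ctrl and 119 and 104 CPM in Rhox10. At 4 h the levels were 51.5 and 62.6 and 258 and 237 CPM, and at 8 h 72.3 and 67.7 and 504 and 461 CPM. Both Rhox10 libraries were thus above both Ctrl libraries from the start, and at 2 h they were also above their own 0 h values. At 8 h the fitted difference was 6.89-fold, and 69.6% of its change from 0 h was present at 4 h.

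Ifit3b had the largest change of the group. It was at 6.75 and 10.4 CPM in Ctrl and 8.0 and 7.18 CPM in Rhox10 at 0 h, where the pairs overlapped. At 4 h Ifit3b was at 5.95 and 5.23 CPM in Ctrl and 15.4 and 13.1 CPM in Rhox10. At 8 h it was at 4.29 and 7.02 CPM in Ctrl and 67.8 and 62.3 CPM in Rhox10, 11.5-fold apart. The change from 0 h was 3.70 (SE 0.347) on the log2 scale, with no overlap at 4 or 8 h. Ifit3, its near copy, followed it at 37.4 and 39.4 CPM in Rhox10 at 0 h and 253 and 234 CPM at 8 h, a change of 3.22. The counts of the copies differed in all 24 iSLAM-seq libraries but were equal in 8 of 8 RNA-seq libraries, so reads may be shared between them and their individual values are uncertain. Ifit2 started highest relative to Ctrl, with a log2 difference of 1.29 at 0 h and 3.39 at 8 h.

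The 5 OAS genes encode enzymes that answer double-stranded RNA by making an oligoadenylate messenger for RNase L, and their relatives. Oas1a, Oas2 and Oas3 lie together on chromosome 5 (120730333 to 120907521), as do Oasl1 and Oasl2 (114896936 to 114937915). Oasl2 was at 59.5 and 61.8 CPM in Ctrl and 45.4 and 48.8 CPM in Rhox10 at 0 h. At 4 h it was at 55.6 and 51.4 CPM in Ctrl and 64 and 73.8 CPM in Rhox10, and at 8 h at 50.8 and 65.8 and 228 and 209.6 CPM. The order of the vectors turned over: Rhox10 was below Ctrl at 0 h and above it at 4 and 8 h, without overlap at these times. The change in log2 difference was 2.27 (SE 0.177).

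Oas1a had the largest fitted change, 4.33 (SE 0.697), but at low depth. Its counts at 0 h were 29 and 13 in Ctrl and 3 and 4 in Rhox10, and at 8 h 21 and 22 in Ctrl and 66 and 93 in Rhox10. In CPM these were 2.57 and 1.16 and 0.273 and 0.404 at 0 h, 1.11 and 1.78 and 2.40 and 2.27 at 4 h, and 2.0 and 2.24 and 6.84 and 9.0 at 8 h. The change therefore rests on very few counts in the Rhox10 libraries at 0 h, and the fitted difference at 8 h alone was 1.90. Oas2 and Oas3 were also shallow, with 7 to 63 and 15 to 69 counts over the 24 libraries, and changed by 1.74 (SE 0.934) and 1.80 (SE 0.528). Oasl1, at 5.81 and 3.97 CPM in Ctrl and 29.7 and 39.6 CPM in Rhox10 at 8 h, changed by 3.07.

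Of the 4 interferon-induced GTPases, Mx1 and Mx2 belong to a family of dynamin-like proteins that trap viral particles. Whether these cells make a working Mx protein was not measured. Gbp2 and Gbp3 encode guanylate-binding proteins that attack the vacuoles of intracellular pathogens. Gbp2 was higher at 8 h than at 0 h with either vector. It was at 14.1 and 10.3 CPM in Ctrl and 7.36 and 10.3 CPM in Rhox10 at 0 h. By 4 h Gbp2 was at 23.9 and 23.3 CPM in Ctrl and 20.9 and 25 CPM in Rhox10, and at 8 h at 25.9 and 29 and 30.5 and 38.4 CPM. The vectors overlapped at 4 h, and by 8 h the level had changed by 1.17 in Ctrl and 1.97 in Rhox10 on the log2 scale. Gbp3, next to it on chromosome 3, was at 12.6 and 16.7 CPM in Ctrl and 48.7 and 48 CPM in Rhox10 at 8 h, from 8.79 and 8.80 and 11 and 8.80 CPM at 0 h. Mx2, annotated as a polymorphic pseudogene, was lower in Rhox10 (5.45 and 6.77 CPM) than in Ctrl (11.1 and 11.5 CPM) at 0 h. At 8 h it was higher, at 55.5 and 66.6 against 11 and 10.5 CPM. Mx1 had 1 to 19 counts in every library except the Rhox10 libraries at 4 h (41 and 29 counts) and 8 h (105 and 91 counts).

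The ADP-ribosylation group held 5 genes. Parp12 encodes a mono-ADP-ribosyltransferase, an enzyme that marks proteins with ADP-ribose. It was at 42.6 and 39.2 CPM in Ctrl and 39.1 and 43.4 CPM in Rhox10 at 0 h, and at 42.9 and 44.3 and 45.8 and 50.9 CPM at 4 h. At 8 h it was at 46.1 and 50.9 CPM in Ctrl and 83.2 and 81.6 CPM in Rhox10. The pairs overlapped at 0 h, were separate at 4 h and 1.70-fold apart at 8 h. The change was 0.75 (SE 0.170), the smallest of this group. Parp9 and Dtx3l, which encode partners in a ubiquitin ligase complex, changed by 2.12 and 1.75, from a start below Ctrl. They are neighbours on opposite strands of chromosome 16 and share 367 exonic bases. Whether counting used strand is not given in the sources used here, so reads could be shared between the neighbours. Parp14, at 34.9 and 34.9 CPM in Ctrl and 108 and 116 CPM in Rhox10 at 8 h, changed by 1.88, and Parp10, whose exons overlap Plec, by 1.22.

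The membrane and secreted group held 4 genes, and its median change, 0.49, was the lowest of the 8 role groups. Ifitm3 encodes a membrane protein that blocks the fusion of viruses in endosomes. It was at 611 and 577 CPM in Ctrl and 997 and 948 CPM in Rhox10 at 0 h. At 8 h it was at 554 and 558 CPM in Ctrl and 1054 and 1088 CPM in Rhox10. Between these times, at 4 h, the levels were 533 and 521 and 974 and 952 CPM. Both Rhox10 libraries were above both Ctrl libraries at all 6 times, 1.64-fold at 0 h and 1.93-fold at 8 h. Lgals3bp, a secreted glycoprotein that binds galectin, behaved alike, at 92.6 and 98.6 CPM in Ctrl and 145 and 147 CPM in Rhox10 at 0 h. At 4 h it was at 76.2 and 87.3 and 128 and 120.2 CPM, and at 8 h at 89.2 and 84.8 and 133 and 147 CPM. Its difference was in place before induction and changed by 0.08 (SE 0.155). Bst2 (tetherin), which holds budding viruses at the cell surface, was at 83.3 and 76 CPM in Ctrl and 98.6 and 72.3 CPM in Rhox10 at 0 h, where the pairs overlapped. At 4 h Bst2 was at 74.6 and 79.7 and 81 and 84.1 CPM, and at 8 h at 82.8 and 82.4 and 141 and 155 CPM. Its log2 difference of 0.10 at 4 h was close to the 0.10 of 0 h, and at 8 h it was 0.84. Rtp4, a chaperone of membrane receptors, was the only gene of this group whose difference changed at least 2-fold, by 2.09.

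Rsad2, Cmpk2 and Samd9l act on nucleotides and translation. Rsad2 (viperin) makes a nucleotide that ends viral RNA chains, and Cmpk2, its neighbour on chromosome 12 in the opposite direction, encodes a nucleotide kinase. Rsad2 was at 25.1 and 24.7 CPM in Ctrl and 28.6 and 32.9 CPM in Rhox10 at 0 h, and at 34.2 and 38.7 and 46.5 and 58.9 CPM at 2 h. At 4 h it was at 31 and 37.4 CPM in Ctrl and 128 and 126 CPM in Rhox10, and at 8 h at 38.2 and 38.7 and 250.4 and 233 CPM. The pairs were separate at each of these times, and 67.6% of the 8 h change was present at 4 h. Cmpk2 was at 5.33 and 7.73 CPM in Ctrl and 6.0 and 4.75 CPM in Rhox10 at 0 h, where the pairs overlapped. By 4 h Cmpk2 was at 6.05 and 3.65 CPM in Ctrl and 16.3 and 17.9 CPM in Rhox10, and at 8 h at 5.24 and 2.85 and 65.6 and 69.5 CPM. That 16.6-fold difference was the highest of the 34 genes at 8 h, and its change from 0 h was 4.33 (SE 0.415). Samd9l, an inhibitor of translation, changed by 2.29.

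The remaining 5 genes were Ifi27, Ifi35, Ifi44, Xaf1 and Trim30a. Ifi27, which encodes a small mitochondrial protein, was at 183 and 165 CPM in Ctrl and 262 and 262 CPM in Rhox10 at 0 h. Later, at 4 h, Ifi27 was at 189.9 and 192 and 249 and 258 CPM, and at 8 h at 197 and 196 and 262 and 262 CPM. It was higher in Rhox10 throughout and was the only one of the 34 whose difference narrowed, by -0.18 (SE 0.0991). Trim30a, a ubiquitin ligase that limits Toll-like receptor signalling, Xaf1, a partner of the apoptosis inhibitor XIAP, Ifi44 and Ifi35 changed by 2.26, 1.55, 1.43 and 1.13. The time courses of 12 genes are plotted by library.

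**Figure D2:**
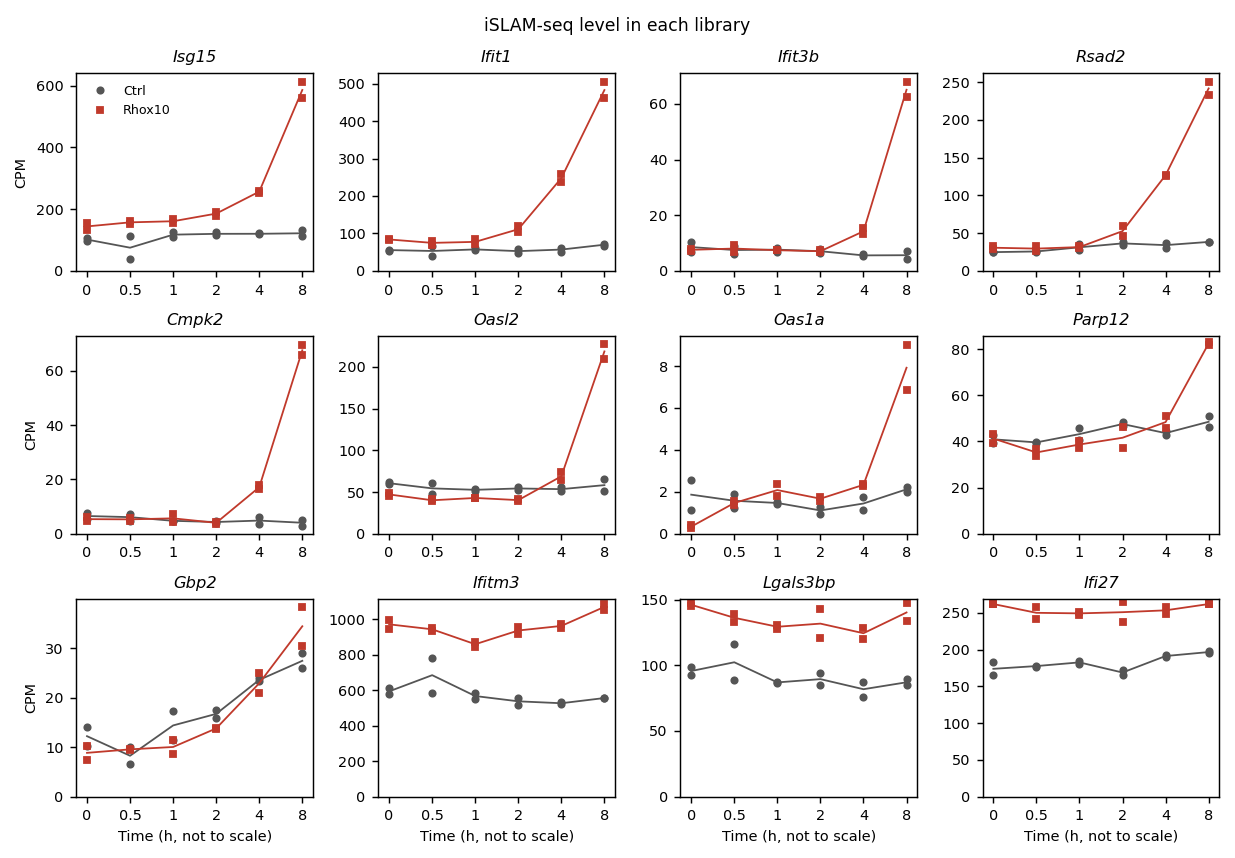
Level in CPM (linear axis from 0, one scale per gene) of 12 genes in each of the 24 iSLAM-seq libraries against time in hours (evenly spaced, not to scale), gray circles for Ctrl and red squares for Rhox10, lines through the mean of each pair. The gap between vectors is wider at 4 and 8 h than at 0 h in Ifit1, Rsad2, Cmpk2, Ifit3b and Isg15. Gbp2 is higher at 8 h with both vectors, and Ifitm3, Lgals3bp and Ifi27 are higher in Rhox10 at every time.

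The genes differed in when the difference appeared. The number whose log2 difference had changed at least 2-fold relative to 0 h was 2 at 0.5 h, 1 at 1 h and 2 at 2 h, against 8.65%, 7.90% and 7.89% of all genes tested. It was 10 at 4 h (8.26%) and 27 at 8 h (9.82%). These changes all share the 0 h libraries. Reached by 4 h were Cmpk2, Ifit1, Ifit3, Ifit3b, Mx1, Mx2, Oasl1, Rsad2 and Samd9l. Oas1a passed this fold from 0.5 h on, which reflects its low 0 h counts in Rhox10. Another 17 were below it at 4 h and past it at 8 h, among them Usp18, Oasl2, Isg15, Rtp4, all ADP-ribosylation genes but Parp12, and Xaf1. Oas3, 1 of these 17, had also passed it at 0.5 and 2 h, with changes of 1.15 and 1.44. For Gbp3 the change was -0.01 at 4 h and 1.55 at 8 h, and for Trim30a -0.38 and 2.26. At the other end, 81.3% of the 8 h change of Mx2 was present at 4 h. Trim25, Gbp2, Parp12, Bst2, Ifitm3, Lgals3bp and Ifi27 did not reach a 2-fold change at any time. The ISRE core was in the promoters of 9 of the 19 genes with a promoter that reached it and of 3 of the 6 that did not (Bst2, Gbp2 and Ifitm3).

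**Figure D3:**
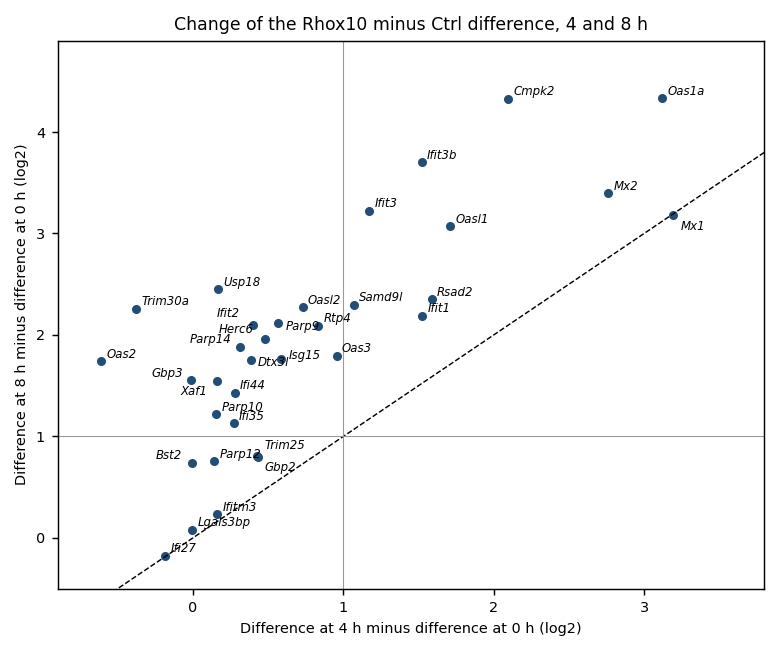
Change of the Rhox10 minus Ctrl difference from 0 h on the log2 scale, at 4 h (horizontal axis) and 8 h (vertical axis), 1 point per gene, with gray lines at a 2-fold change and a dashed line of equal change. Mx1 and Mx2 lie near the dashed line, with most of their change present at 4 h, while Usp18, Trim30a, Oas2 and Gbp3 are at or below 0.17 at 4 h and at 1.55 or more at 8 h.

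Within each vector the same picture held. Between 0 and 8 h the median change over the 34 genes was -0.00 in Ctrl and 1.90 in Rhox10 on the log2 scale, against 0.01 and -0.00 over all genes. In Ctrl 17 genes were above 0 and 17 below, with Trim30a lowest (-0.80) and Gbp2 highest (1.17). In Rhox10 32 were above 0, and Lgals3bp (-0.06) and Ifi27 (-0.00) were not. Cmpk2, Ifit3b and Ifit3 were lower at 8 h than at 0 h in Ctrl (changes of -0.68, -0.60 and -0.56), so part of their change in difference lies in the Ctrl libraries. Macrophage and leukocyte markers (10 genes) summed to 24.9 to 27.2 CPM in Ctrl and 28.9 to 31.9 CPM in Rhox10 at 0 h, and to 29.5 to 38.0 CPM and 35.5 to 36.5 CPM at 8 h. At 8 h these ranges overlapped between vectors, but single markers moved in opposite directions. Cd14 (120 and 133 against 57 and 32 counts) and Lyz2 (29 and 33 against 4 and 10) were higher in Rhox10 than in Ctrl. Cd68 was lower (173 and 169 against 229 and 305). No other marker of this list exceeded 28 counts in any library. C1qa was at 0 in all Ctrl libraries and had at most 1 count in Rhox10 libraries. Stromal markers (6 genes) were higher in Rhox10 at 0 h (1930.2 to 1988 CPM, against 1420 to 1551 CPM) and closer at 8 h (1174 to 1208 against 1089 to 1138 CPM). The sum of the Sertoli markers (5 genes) was lower in Rhox10 at 8 h (231 to 245 CPM, against 404 to 439 CPM in Ctrl). Most of that sum was Sox9 alone, with 2130 and 2380 counts in Rhox10 and 4465 and 3847 counts in Ctrl. Wt1 overlapped between vectors at 8 h (101 and 142 against 138 and 123 counts). Amh was at 0 in every library, and Gata4 and Fshr had at most 10 and 4 counts. Endothelial markers (3 genes) were lower in Rhox10 at both times. So were germ cell markers (6 genes), at 1528 to 1570 against 1789 to 1836 CPM at 0 h. At 8 h they summed to 1627 to 1703 against 1966 to 1986 CPM. Most of that sum was Dazl, and only Pou5f1, with 1 to 19 counts, had a fitted difference above 0 at these times. T and NK cell markers (3 genes, mostly Cd2) overlapped at 0 h and were lower in Rhox10 at 8 h (7.55 to 7.78 against 12.1 to 13.2 CPM). The part of these markers in the differences was not tested.

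**Figure D4:**
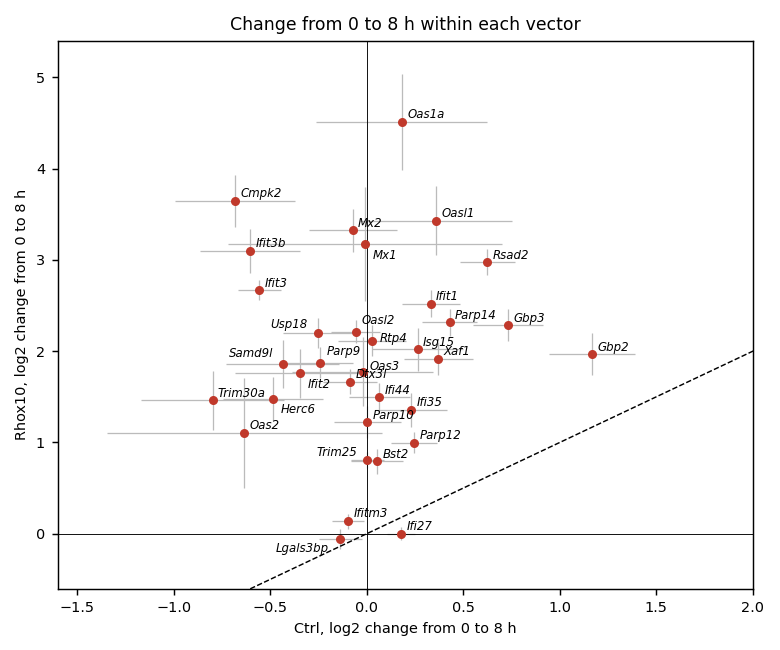
Change from 0 to 8 h on the log2 scale within Ctrl (horizontal axis) and within Rhox10 libraries (vertical axis), 1 point per gene with bars of 1 standard error from the edgeR fit, and a dashed line of equal change. Points scatter around 0 in Ctrl (median -0.00) and reach 4.51 in Rhox10 (Oas1a), and Gbp2 lies farthest right, at 1.17 in Ctrl.

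Genes outside the list with the most similar profile were found by correlating log2 CPM with the mean standardized profile of the 34 genes over the 24 libraries, among 12030 genes with a mean of at least 5 CPM. The 8 highest were Ddx58 and Ddx60, RNA helicases, Gbp7 and Igtp, further interferon-induced GTPases, Irf9 and Stat2, parts of the ISRE-binding complex, Mitd1 and Trim56, with Pearson r from 0.91 to 0.96. These libraries share vectors and times, so the correlations are descriptions. Ddx60 went from 8.45 and 7.79 CPM in Rhox10 at 0 h to 64.9 and 61.5 CPM at 8 h, when Ctrl libraries were at 11.4 and 10.8 CPM. Gbp7 went from 17.5 and 16.6 to 96.5 and 102 CPM.

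The pathway above the effectors was read from 4 lists. Of 21 interferon ligand genes, only Ifnk passed the filter on low counts in iSLAM-seq, with 0 to 16 counts per library, and it was not called. Ifnb1, the type I interferon that many cell types make first, had 0 to 2 counts per library, and of the others none exceeded 8 counts. At this depth ligand transcripts were not detectable beyond these counts. Of 11 receptors, kinases and SOCS inhibitors 0 passed the test of change from 0 h (background 2.39%), and Socs1, an inhibitor of JAK kinases, had the highest change, 1.02 (SE 0.392). Of 16 sensors and adaptors tested, 4 passed and all were higher. These were the RNA sensors Ddx58 (1.86) and Ifih1 (1.94), the kinase Eif2ak2 (1.21) and the RNA editor Adar (1.49). Of 13 transcription factors tested, 4 passed, all with a higher difference at 8 h than at 0 h. These were Stat2 (1.99), Irf9 (0.96), Irf7 (0.91) and Irf1 (0.25), all on the log2 scale. These lists were written with results of the time course known and are no independent support.

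In the RNA-seq libraries of sorted eGFP+ cells the effector genes had low counts, at the depth given above. Markers of other cells were present in these libraries (below), so the counts are not those of germ cells alone. Of the 34, 13 passed the filter on low counts in RNA-seq, and the other 21 had at most 14 counts in any library. Isg15 had 0 to 3 counts and Ifit1 0 to 2. Of the 13 tested, 1 differed between genotypes, against 37.5% of the 13538 genes tested. That gene was Parp12, and it fell. It was at 12.2, 13.2, 11.7 and 10.2 CPM in the wild-type libraries and at 6.77, 8.48, 8.65 and 5.65 CPM in those labelled null. Every library labelled null was below every wild-type library, as for 16.4% of all genes. The mean of 11.8 ± 1.26 CPM (SD, n = 4) in wild-type stood against 7.39 ± 1.43 CPM (SD, n = 4) under the null label, with a log2 fold change of -0.67 (SE 0.128; edgeR quasi-likelihood test, Benjamini-Hochberg adjusted p = 5.13e-05). With counts scaled to pan-germ-cell genes in place of all genes the direction reversed, to 0.17 (adjusted p = 0.208).

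None of these 13 was called higher by edgeR with TMM scaling or by DESeq2, though Herc6 and Ifi27 had an unadjusted p under 0.05. In edgeR fits scaled to library totals or to pan-germ-cell genes 5 and 12 of them were called higher, where the median of all genes was itself at 0.35 and 0.84. Ifi27 was at 7.97, 6.90, 4.24 and 8.0 CPM in wild-type libraries and 8.30, 7.81, 9.73 and 8.34 CPM in those labelled null. The groups overlapped, and the log2 fold change was 0.31 (SE 0.144, edgeR adjusted p = 0.0809). Trim25 was at 15.2, 17, 17.5 and 13.7 CPM in wild-type libraries and 14, 15.9, 17.5 and 14 CPM in those labelled null. The groups overlapped over nearly their whole range (log2 fold change -0.04, SE 0.0985, edgeR adjusted p = 0.794). Herc6 was at 2.86, 2.91, 3.22 and 2.85 CPM and 3.82, 4.37, 3.60 and 3.90 CPM, with every library labelled null above every wild-type library, as for 15.8% of all genes. Its log2 fold change was 0.41 (SE 0.196, edgeR adjusted p = 0.104). Over the 13 genes the median log2 fold change was 0.11, with 10 above 0, against 0.00 over all genes tested.

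**Figure D5:**
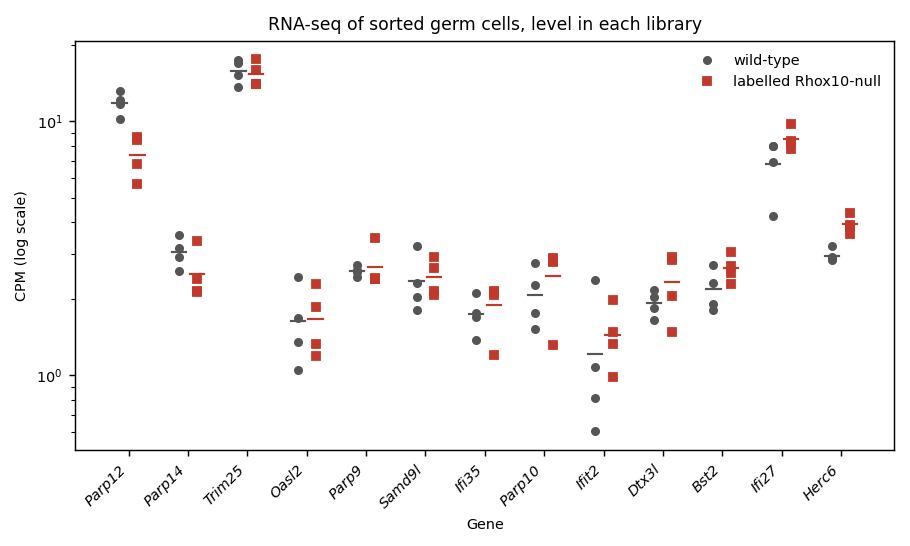
Level in CPM (log axis) of the 13 genes that passed the low-count filter in each RNA-seq library, gray circles for wild-type and red squares for libraries labelled Rhox10-null (4 each), with a bar at each mean. Parp12 (11.8 and 7.39 CPM) and Herc6 (2.96 and 3.92 CPM) are the genes whose groups do not overlap.

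Among the 21 genes below the filter, Usp18, Rsad2, Trim30a and Lgals3bp had every library labelled null above every wild-type library, as had 3.01% of the genes with counts that did not pass, and none had the reverse (1.55%). These shares include genes with too few counts to separate the groups at all, so they are not a like background for the 4 genes. Usp18 had 0, 0, 0 and 2 counts in wild-type and 4, 4, 6 and 3 counts under the null label. Trim30a had 3, 1, 3 and 5 and 14, 8, 13 and 6 counts, and Rsad2 2, 1, 2 and 1 and 4, 11, 6 and 6. Without the filter these 3 were called higher in libraries labelled null (edgeR adjusted p = 0.0371, 0.0166 and 0.0283). They are 3 of the 34 members in that fit. Over all genes it called 2541 higher, among the 13538 that pass the filter and the 20151 that do not, so nothing is read from the 3 calls. Marker genes of other cells also differed between the genotypes. Macrophage and leukocyte markers (10 genes) summed to 30.8 to 33.5 CPM in libraries labelled null and 24.2 to 25.4 CPM in wild-type, none of them was at 0 throughout a genotype, and 3 of the 8 tested were called higher. Erythroid markers (6 genes) summed to 76.8 to 85.7 and 1.36 to 3.90 CPM, and stromal markers to 680.0 to 719 and 427 to 450.1 CPM. Sertoli markers summed to 349 to 368 and 301 to 314 CPM, with 1 of 5 called higher. Leydig markers summed to 28.7 to 32.3 and 18.9 to 21.7 CPM, with 3 of the 3 tested called higher. Endothelial markers summed to 32.3 to 35.6 and 21.6 to 25.6 CPM, with 2 of 3 called higher. The 3 T and NK cell markers overlapped between genotypes and did not pass the filter. Germ cell markers (6 genes) summed to 91.1 to 101 and 193 to 200.2 CPM. The part of these differences in the values of the effector genes was not tested.

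With TMM scaling, upstream genes called in the same RNA-seq libraries were higher under the null label. Calls depend on the scaling: over all genes 2518 were called higher here and 7229 with library totals. The part of the marker differences in these values was not tested. Of 11 transcription factors tested, 5 rose in libraries labelled null (18.6% of all genes were called higher) and 0 fell. They were Irf9 (0.69, edgeR adjusted p = 0.00258), Irf1 (0.37), Irf2 (0.54), Stat3 (0.37) and Stat6 (0.49). Of 11 sensors tested, 2 rose, Ddx58 and Ikbke, a share near the 18.6% of all genes. Ddx58, the RNA sensor RIG-I, was at 1.05, 1.07, 1.70 and 1.49 CPM in wild-type libraries and 5.02, 3.71, 2.16 and 4.71 CPM in those labelled null, without overlap (log2 fold change 1.55, SE 0.275, edgeR adjusted p = 1.61e-05). Of 11 receptors, kinases and SOCS inhibitors, 2 rose, also a share near that of all genes. They were the receptor gene Ifnar2 (0.66) and Socs3 (0.72), one of the SOCS inhibitors. No interferon ligand passed the filter.

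RHOX10 peaks were looked up at these genes. The authors' table of 5147 peaks annotated a peak within 3 kb of the start of 3 of the 34, Bst2, Herc6 and Ifi27, against 7.67% of all genes and 19.8% of the genes tested in iSLAM-seq. The peak at Bst2 spans chr8:71536901-71537712 (mm10), covers the gene's start and contains the pair of ISRE matches printed above. The peak at Herc6 spans chr6:57580850-57581504 and that at Ifi27 chr12:103433952-103434417, and each covers the start. Their scores, which are the authors' own, were 69.7, 31.4 and 43.0, below the median of 128 over all peaks. In the time course Bst2 and Ifi27 were among the genes without a 2-fold change, and Herc6 was among those that reached it at 8 h (change of 1.96). None of the other genes of the 34 had an annotated peak at any distance, whether or when their difference changed. The share of all genes with a peak at any distance is not given here. Of the pathway genes, peaks within 3 kb were annotated to Stat3, Stat5a and Irf2, to Ifnar1, Ifnar2, Ifngr1, Il10rb, Jak1, Tyk2 and Socs1, and to Ddx58, Mavs and Adar. The lists searched held 14 transcription factors, 11 receptors, kinases and SOCS inhibitors, 18 sensors and adaptors and 21 ligands. The shares of 7.67% of all genes and 19.8% of genes tested in iSLAM-seq stand beside them too. Whether the lists differ from these shares was not tested.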

How the data were processed

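The authors deposited a table of raw counts per gene for RNA-seq and another for iSLAM-seq, with a column for each library, per the file headers. The submitters' processing notes name STAR 2.5.2b, Subread, featureCounts and DESeq2 with GRCm38 for RNA-seq, limma 3.42.2 with mm10 for iSLAM-seq, and Bowtie2 2.2.5, SAMtools and HOMER with mm10 for CUT&Tag. The strand setting, and whether all or only converted iSLAM-seq reads were counted, are not given in the sources used here. The deposited peak table gives each merged peak the authors' score, and its other columns (position, distance to the start site and gene) are as the authors annotated them. The count tables had 0 further numeric columns.

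Counts were tested with edgeR 4.0.16 (R 4.3.3, with limma 3.58.1 installed): quasi-likelihood fits, TMM scaling, filterByExpr, and Benjamini-Hochberg adjustment over all genes tested, with a threshold of 0.05. RNA-seq was fitted by genotype. iSLAM-seq was fitted with a mean per vector and time over all 24 libraries. Of 55536 identifiers 55450 matched symbols in GENCODE M21. A fold change is on the scale of the fitted log2 CPM, and the SE is its size divided by the square root of F.

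The members, role groups and pathway lists were chosen with earlier results of these data known, and the list of transcription factors is not complete, since some results are not reported here. Full values are given for the member of highest mean CPM in each role group, the 3 largest and 3 smallest changes from 0 to 8 h, and, in RNA-seq, members called or at a mean of at least 5 CPM. Genes named beyond this rule were chosen after their values were seen. The fits were tested on simulated data. Same-numbered libraries had a mean correlation of deviations of -0.00 in RNA-seq and 0.01 in iSLAM-seq, so the numbers were not treated as pairs. The alternatives were DESeq2 1.42.0, other scalings, no filter, a replicate block, leaving out each library and other peak limits. The IgG and control CUT&Tag libraries were not used here.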

Additional observations from a re-analysis of the deposited data

Results flagged for a closer look

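Among the RNA-seq levels of the 13 genes tested, 26 groups of 4 libraries were searched for a library apart from its group. In 3 of them one was found, where chance gives about 1 in 20 groups (1.3 here). For Parp9 the library labelled null of replicate 3 was at 3.48 CPM and the others at 2.38 to 2.42 CPM (gap divided by range 0.965). For Parp10 replicate 1 labelled null was at 1.31 CPM and the others at 2.78 to 2.88 CPM (0.935). For Ifi35 replicate 3 labelled null was at 1.2 CPM and the others at 2.07 to 2.15 CPM (0.918). None of these 3 genes was called between genotypes.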

How the results depend on the processing

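For the effector genes in iSLAM-seq, the median change from 0 to 8 h stayed between 1.87 and 2.04 over the 24 fits that each left out 1 library, and 20 to 30 members were called. Over all genes those fits called 314 to 4331. Leaving out a Ctrl library at 0.5 h gave 4331 (replicate 1) and 1555 (replicate 2), and leaving out Ctrl replicate 1 or Rhox10 replicate 1 or 2 at 8 h gave 314, 314 and 315, against 494. DESeq2 called 835 genes and the fit without the low-count filter 1002. In RNA-seq the calls were 5071 in the report, 2980 with DESeq2, 7858 with library totals (7229 higher, 629 lower) and 12041 with pan-germ-cell scaling (11962 higher, 79 lower). Members called were 6 with library totals (5 higher: Herc6, Bst2, Trim25, Ifi27 and Dtx3l), 12 with pan-germ-cell scaling (all higher) and 4 without the filter, where 4871 genes were called. The members' median became 0.46 with library totals and 0.95 with pan-germ-cell scaling. These scalings move the median of all genes to 0.35 and 0.84, so the members moved with it. Trim25 reversed to 0.31 (library totals) and 0.80 (pan-germ-cell), Parp12 to 0.17 (pan-germ-cell), and with library totals Parp12 was at -0.32. For the other changes the cause was not tested. Leaving out each RNA-seq library gave 4468 to 4687 calls, 1 member called in every fit, and medians of 0.05 to 0.15. No peak of a member scored at or above the median, which leaves 0 of the 3. With the replicate number as a block the calls were 5066 in RNA-seq (1 member, median 0.12) and 502 in iSLAM-seq (26 members, median 1.92), and no call of a member counted here changed. Depth limits the 21 members with at most 14 counts in RNA-seq and the tested members with means under 5 CPM there. In iSLAM-seq it limits Oas1a, Oas2, Oas3 and Mx1.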
